A study of Mus musculus with 9 samples.

Results

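The SOX transcription factors described here are Sox1, Sox2, Sox4, Sox8, Sox9, Sox10, Sox11 and Sox21, 8 of the 32287 genes counted. They were chosen by name, as factors known from neural stem cells (NSCs), neuroblasts and glia. The rule uses no measured value, but it was set with earlier results of these data known. Single cells of the adult mouse ventricular-subventricular zone (vSVZ) and of the olfactory bulb pooled with its migratory stream and the striatum (RoB) were sequenced in 4 libraries. All mice were males of the TiCY line, in which Tlx-CreERT2 and a Rosa26-eYFP reporter make Tlx-expressing NSCs and their progeny eYFP positive after tamoxifen. The WT young mice were 16 weeks old and had received tamoxifen at 10 weeks, 6 weeks before collection. The WT old mice were 80 weeks old and had received it at 71 weeks, 9 weeks before collection. The KO mice also lacked the interferon receptors Ifnar1 and Ifngr1 (IFNAGR KO). KO young mice were 16 weeks old, with tamoxifen at 7 weeks, and KO old mice 92 to 105 weeks old, with tamoxifen at 85 and 98 weeks, both with a chase of 9 weeks. For the KO old mice these label values disagree, since tamoxifen age and chase do not add up to the ages given. Each group held 2 mice, whose cells carried hashtags for mouse and tissue and were run in 1 reaction. Group and reaction therefore cannot be told apart, and the interval after tamoxifen was shorter in WT young mice than in the other groups. Cells were sorted before loading: eYFP+ and GLAST+ cells from the vSVZ, eYFP+ cells and eYFP− PSANCAM low cells from the RoB, without CD45+, Ter119+ or O4+ cells. The shares of cell types in a library were therefore set in part by the gates.

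SOX proteins bind DNA through an HMG box, and closely related members often stand in for each other. SoxB1 factors (Sox1, Sox2) maintain the neural stem and progenitor state, and Sox21 of the SoxB2 group counters them. SoxE factors are glial: Sox9 marks astroglia and NSCs, whereas Sox8 and Sox10 act in oligodendrocytes, their precursors and olfactory ensheathing glia. SoxC factors (Sox4, Sox11) switch on neuronal genes such as Tubb3 and Dcx in newborn neurons. In the vSVZ, quiescent NSCs, which share most of their genes with astrocytes, become activated NSCs, then transit amplifying progenitors (TAPs) and neuroblasts, and the neuroblasts migrate through the stream to the olfactory bulb.

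After filtering, 18055 cells remained, 5820 from WT young, 2396 from WT old, 6461 from KO young and 3378 from KO old mice, with a median of 5067 to 7437 UMIs per cell, a UMI being 1 counted RNA molecule. Pairs of libraries shared 3 to 9 cell barcodes. Clusters were named from marker lists that held no SOX gene, and SOX genes were left out of the genes used for clustering. The classes were 5805 quiescent NSC-like cells (astroglia included), 976 activated NSC-like, 1155 TAP-like, 6510 neuroblast-like, 660 neuron-like, 82 oligodendrocyte progenitor (OPC)-like, 134 oligodendrocyte-like, 2024 olfactory ensheathing glia-like, 329 microglia-like and 104 endothelial-like cells. The O4 gate and the small numbers limit what can be said of OPCs and oligodendrocytes, of which the WT young library held 11 and 0. In quiescent NSC-like cells of the vSVZ, the log2 difference of KO from WT young mice was −4.61 ± 0.33 (SE) for Ifngr1 and −2.34 ± 0.40 for Ifnar1, adjusted p = 3.4e-10 and 0.00056 with edgeR's quasi-likelihood test, so the libraries matched their genotype labels.

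Both SoxB1 members were listed at 0 in every library, which is no measurement of their expression. Sox1 (ENSMUSG00000096014) lies on chromosome 8, from 12395295 to 12400126 on the + strand of GRCm38, and its only exon falls inside the longer transcript Sox1ot on the same strand. Sox2 (ENSMUSG00000074637), the best known NSC factor of the family, lies on chromosome 3 from 34650405 to 34652461 on the + strand, with its only exon inside Sox2ot. Of 73 protein-coding genes with a single exon inside another gene on the same strand, 71 (97.3%) were listed at 0 in this matrix. That share was 92.2% for 116 single-exon genes inside another gene on the opposite strand only. It was 56.0% for 924 single-exon genes without an overlapping gene, and 18.8% for 13710 genes of several exons without one. The hosts were counted, with 8222 UMIs for Sox1ot and 4453 for Sox2ot, but they are different transcripts and were not taken as a reading of Sox1 or Sox2.

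The other 6 members were counted. Sox9 (ENSMUSG00000000567, chromosome 11, 112782224 to 112787760, + strand) has 3 exons and held 79956 UMIs over the filtered cells. Sox4 (ENSMUSG00000076431, chromosome 13, 28948919 to 28953713, − strand) and Sox11 (ENSMUSG00000063632, chromosome 12, 27334264 to 27342574, − strand) are single-exon genes that no host encloses, and held 238681 and 231877 UMIs. Sox8 (ENSMUSG00000024176, chromosome 17, 25565892 to 25570686, − strand), Sox10 (ENSMUSG00000033006, chromosome 15, 79154908 to 79165240, − strand) and Sox21 (ENSMUSG00000061517, chromosome 14, 118233232 to 118237030, − strand) held 10068, 6804 and 9307 UMIs. The gene 2810468N07Rik runs against Sox8 over 329 bases, and Gm4675 against Sox21 over 799 bases. Since the use of strand in the counting is not given in the sources used here, reads from these overlaps cannot be told apart.

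The 250 bases before the transcription start of Sox4 and Sox11 are shown because both SoxC members were called with age in quiescent NSC-like cells. They come from RefSeq (GRCm38.p6), chr13:28953700-28953949 and chr12:27342719-27342968, both read on the − strand, and capitals mark the E-box CAGCTG and the CCAAT box (ATTGG on the other strand).
Sox4: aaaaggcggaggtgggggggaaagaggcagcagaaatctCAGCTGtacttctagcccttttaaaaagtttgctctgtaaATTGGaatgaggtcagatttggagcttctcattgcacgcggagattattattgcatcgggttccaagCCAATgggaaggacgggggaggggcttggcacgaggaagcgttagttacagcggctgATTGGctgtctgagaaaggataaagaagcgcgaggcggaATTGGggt
Sox11: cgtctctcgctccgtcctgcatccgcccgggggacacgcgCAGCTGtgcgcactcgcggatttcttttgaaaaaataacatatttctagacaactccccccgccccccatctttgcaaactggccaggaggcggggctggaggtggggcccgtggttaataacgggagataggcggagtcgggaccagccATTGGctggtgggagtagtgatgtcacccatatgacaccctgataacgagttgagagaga
Searched on both strands, CAGCTG occurred in 13.0% and CCAAT in 33.8% of 32851 promoters of this length, and both promoters held both. Neither held the SOX core ACAAAG, present in 16.5% of all, or TATAAA, present in 12.4%. These matches describe the letters only.

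Levels are given as UMIs per 1000000 UMIs of the same cells (CPM), summed over a class. No test was made between classes, since classes come from clusters of these cells. Levels were compared between cell types within a gene, never between genes. Where a library held fewer than 20 cells of a class it was left out of the range over libraries, and intervals (95%, exact Poisson for CPM, exact Clopper-Pearson for shares) cover counting error only.

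**Figure D1:**
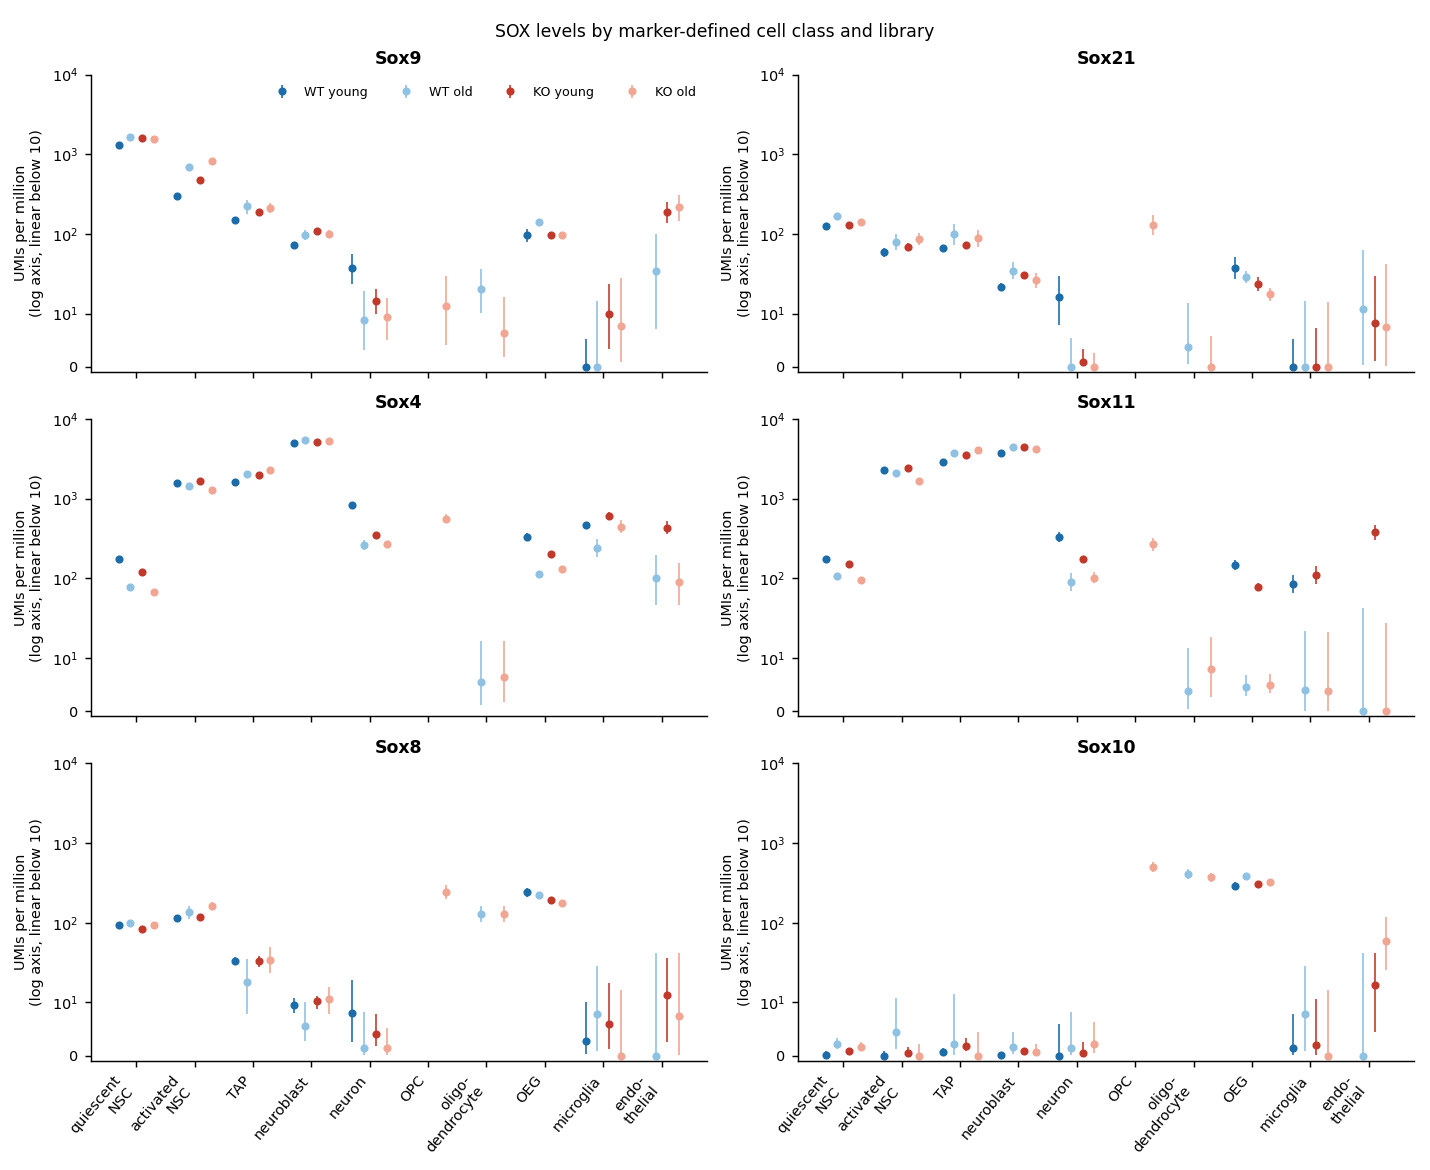
Level of each counted SOX member (CPM, log axis that is linear below 10) by cell class, with a point for each library in the colour of its group and counting intervals as bars. Sox9 is highest in quiescent NSC-like cells, Sox4 and Sox11 in neuroblast-like cells, and Sox10 reaches over 200 CPM only in OPC-like, oligodendrocyte-like and olfactory ensheathing glia-like cells.

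Among the SoxE members, Sox9 was the stem cell and astroglial factor of these data. Quiescent NSC-like cells held 1539 CPM (95% interval 1527 to 1551). By library, WT young cells held 1298 CPM, WT old 1624 CPM, KO young 1580 CPM and KO old 1567 CPM. A Sox9 UMI was found in 98.1% of these cells. The level was 469 CPM in activated NSC-like cells, where the libraries spread from 301 to 815 CPM, and 169 CPM in TAP-like cells, with 148 to 221 CPM by library. Libraries of these 3 classes did not overlap, so the order quiescent, activated, TAP held in each. Neuroblast-like cells followed with 94.4 CPM and a UMI in 21.5% of cells. Sox9 in TAP-like, endothelial-like, neuroblast-like and olfactory ensheathing glia-like cells (110.5 CPM in the last) overlapped between neighbours in the order. Endothelial-like cells held 169 CPM with a UMI in 19.2% of cells. Microglia-like cells, present despite the CD45 gate and a class that should lack the gene, held 4.03 CPM and a UMI in 2.13% of cells at a median of 5249 UMIs per cell, against 6950 in quiescent NSC-like cells. With every cell thinned to 1000 UMIs, the shares were 71.6% in quiescent, 34.5% in activated NSC-like, 14.5% in TAP-like, 6.67% in neuroblast-like and 0.304% in microglia-like cells.

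Sox10, the factor of the oligodendrocyte lineage, was all but restricted to 3 classes. OPC-like cells held 522 CPM (474 to 575), oligodendrocyte-like cells 387 CPM, and olfactory ensheathing glia-like cells 334 CPM with 292 to 387 CPM by library. A Sox10 UMI was present in 97.6%, 94.0% and 86.9% of these cells. Oligodendrocyte-like and olfactory ensheathing glia-like libraries overlapped. In quiescent NSC-like, activated NSC-like, TAP-like, neuroblast-like and neuron-like cells the level was 0.520 to 1.14 CPM and was read as background. It was no higher than the 2.30 CPM of microglia-like cells, where 1.22% of cells held a UMI. Endothelial-like cells held 22.5 CPM with a UMI in 2.88% of cells, and 0 to 59.6 CPM by library.

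Sox8, which overlaps Sox10 in function, was less restricted. It was highest in OPC-like cells with 245 CPM, followed by olfactory ensheathing glia-like cells with 199.6 CPM (177 to 240 by library) and oligodendrocyte-like cells with 132 CPM. Unlike Sox10, it was counted well above the microglial level of 4.03 CPM in activated NSC-like cells, with 125 CPM (115 to 164), and in quiescent NSC-like cells, with 90.8 CPM (84.0 to 98.6). In each library the level was lower in quiescent than in activated NSC-like cells. It was 32.7 CPM in TAP-like cells and 9.85 CPM in neuroblast-like cells, where 4.45% of cells held a UMI against 1.82% of microglia-like cells. Both Sox8 and Sox10 were found in 89.0% of OPC-like, 62.7% of oligodendrocyte-like and 55.9% of olfactory ensheathing glia-like cells.

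Sox21, the SoxB2 member, had a profile close to that of Sox9 along the neurogenic lineage. Quiescent NSC-like cells held 138 CPM (124 to 169 by library), TAP-like cells 70.4 CPM, activated NSC-like cells 68.1 CPM and neuroblast-like cells 26.8 CPM. TAP-like and activated NSC-like libraries overlapped, whereas both stood between the quiescent and the neuroblast-like range. OPC-like cells, where Sox9 was at 9.85 CPM, held 137 CPM of Sox21, within the quiescent range. No UMI was found in 329 microglia-like cells, which allows a share of cells with a Sox21 UMI of up to 1.11% at this depth and sets no limit on cells that express it, against 51.6% of quiescent NSC-like cells with a UMI.

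From quiescent NSC-like to neuroblast-like cells, the SoxC members ran opposite to Sox9, as a description of the class levels. Sox4 was at 108 CPM in quiescent NSC-like cells (66.7 to 175 by library), 1559 CPM in activated NSC-like cells (1268 to 1668), 1803 CPM in TAP-like cells (1618 to 2310) and 5089 CPM in neuroblast-like cells (4943 to 5411). Activated NSC-like and TAP-like libraries overlapped, and the neuroblast-like libraries lay above all others. In neuron-like cells the level was 377 CPM, with 834 CPM in WT young and 263 to 354 CPM in the other libraries. Elsewhere, OPC-like cells held 779 CPM of Sox4, microglia-like cells 468 CPM with a UMI in 62.3% of cells, and olfactory ensheathing glia-like cells 158 CPM. Droplets without a cell (5 to 100 UMIs) held 539 to 1969 CPM of Sox4 by library, and the part of free RNA in these levels was not tested.

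Sox11 reached a high level earlier in the order of classes than Sox4. It was at 133 CPM in quiescent NSC-like cells (96.1 to 176), 2224 CPM in activated NSC-like cells (1684 to 2405), 3239 CPM in TAP-like cells (2913 to 4036) and 4161 CPM in neuroblast-like cells (3785 to 4446). Here activated NSC-like and TAP-like libraries did not overlap, whereas TAP-like and neuroblast-like libraries did. Neuron-like cells held 161 CPM, OPC-like cells 388 CPM and microglia-like cells 68.6 CPM, with a UMI in 10.6% of the last. In microglia-like cells the WT old and KO old libraries were at 3.91 and 3.83 CPM and the WT young and KO young libraries at 85.1 and 111 CPM. Endothelial-like cells held 221 CPM with a UMI in 11.5% of cells, with 380 CPM in the KO young library and 0 in WT old and KO old.

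Members were also counted together in single cells. Both SoxC members were found in 99.6% of neuroblast-like, 98.5% of TAP-like and 96.4% of activated NSC-like cells, and in 92.7%, 68.7% and 54.0% of them after thinning to 1000 UMIs. Sox9 and Sox11 were found together in 77.7% of activated NSC-like cells and 62.5% of TAP-like cells, or 22.1% and 13.4% after thinning. After thinning, 53.1% of activated NSC-like and 77.6% of TAP-like cells held a UMI of Sox11 and none of Sox9. Droplets without a cell held 360 to 1774 CPM of Sox11 and 189 to 377 CPM of Sox9 by library, so a UMI of both in a cell is not a measure of joint expression.

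**Figure D2:**
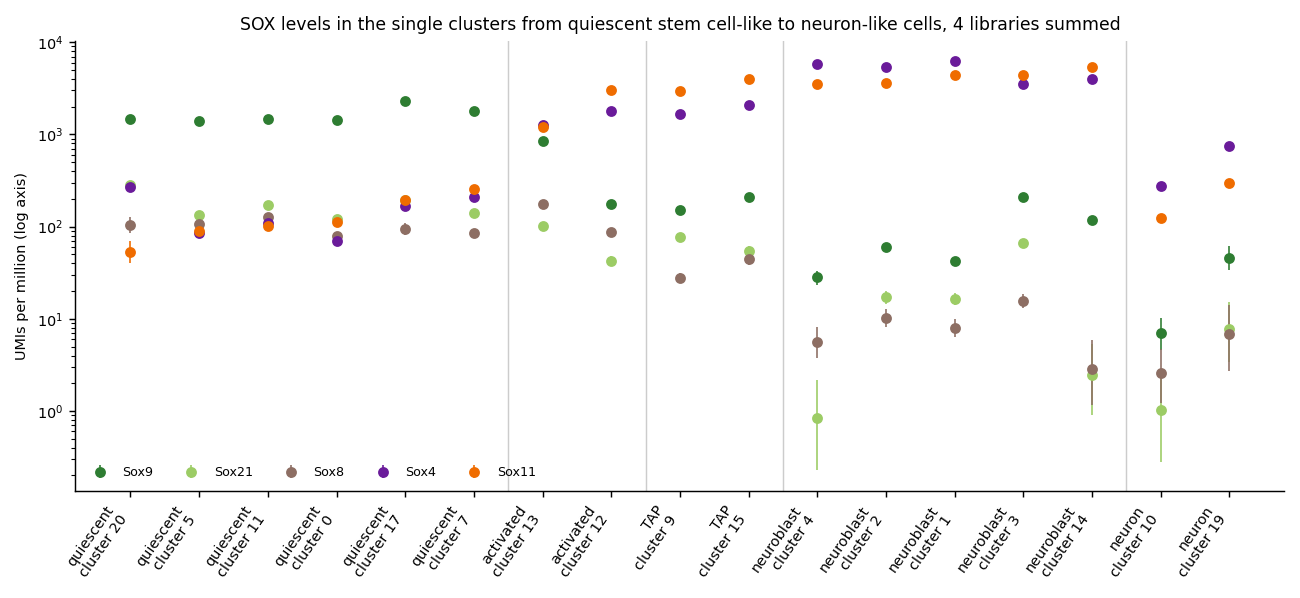
Level of Sox9, Sox21, Sox8, Sox4 and Sox11 (CPM, log axis) in each cluster of the quiescent NSC-like, activated NSC-like, TAP-like, neuroblast-like and neuron-like classes, summed over the 4 libraries and ordered within a class by Sox11, with counting intervals as bars. Within the activated class, the cluster led by Egfr and Dll1 holds 851 CPM of Sox9 and the cluster led by Mcm genes 175.

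Levels also differed among the clusters that made up a class. The activated NSC-like class held a cluster of 475 cells led by Egfr and Dll1, and a cluster of 501 cells led by Mcm genes and Cdk6, genes of DNA replication and the cell cycle. The first held 851 CPM of Sox9, 175 CPM of Sox8, 1268 CPM of Sox4 and 1210 CPM of Sox11. In the second, Sox9 was at 175 CPM and Sox8 at 86.5 CPM, with 1781 CPM of Sox4 and 3002 CPM of Sox11. All 4 members thus differed inside a class in the direction in which they differed between the quiescent and TAP-like classes, except that Sox8 was higher in the first cluster than in any quiescent cluster.

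Among quiescent NSC-like clusters, the one richest in eYFP (1013 cells, led by Thbs4 and Ecel1, with an eYFP UMI in 49.5% of cells) held 209 CPM of Sox4 and 253 CPM of Sox11. The largest cluster (2853 cells, led by Crym and Gdf10) held 69.4 and 113 CPM. Sox9 was at 1785 CPM in the eYFP-rich cluster and 1445 CPM in the largest, and Sox8 at 84.8 and 79.7 CPM. Sox9 was highest, at 2326 CPM, in a cluster of 234 cells led by the immediate early genes Fos and Dusp1, which dissociation is known to induce.

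Within neuroblast-like cells the SoxC members parted. A cluster of 1238 cells led by St18 and Dlx1as held 4437 CPM of Sox11 and 3548 CPM of Sox4, and still 209 CPM of Sox9. The cluster led by Zic1 and Zic2 held most Sox11, 5401 CPM. The cluster of 1959 cells led by Foxp2 and Tshz2 held most Sox4, 6187 CPM, with 4367 CPM of Sox11, and the cluster of 1808 cells led by Stmn2 and Tubb3 held 5360 CPM of Sox4 and 3603 CPM of Sox11. The Sox21 level was 66.1 CPM in the first of these clusters and 2.5 CPM in the cluster with Zic1.

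The genes whose level was most like that of a member were sought over 20 sums (5 classes in 4 libraries, log2 of CPM + 5, 6897 genes). The classes were quiescent NSC-like, activated NSC-like, neuroblast-like, neuron-like and olfactory ensheathing glia-like, those with at least 50 cells in each library. TAP-like, OPC-like and oligodendrocyte-like cells, among others, did not enter. These genes are given by Pearson's r as a description, since the sums share libraries and clusters. For Sox4 they were Mex3b (r = 0.994), Cfl2 (0.989) and Cd24a (0.989), the last a marker of the neuroblast list. For Sox11 they were Cdca7 (0.973), Prdx2 (0.968) and Tsn (0.959). For Sox9 they were Gna13 (0.981), Sox21 (0.973) and Lfng (0.971), and for Sox21 they were Echs1 (0.975), Sox9 (0.973) and Atp6v0e (0.957). Sox8 was followed by Dbi (0.984), Hadh (0.981) and Dhrs4 (0.976), and Sox10 by Erbb3 (0.999) and Foxd3 (0.998), where the olfactory ensheathing glia-like sums stood apart from the other 4 classes.

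Of the 11 other SOX genes, the endothelial factors Sox17 and Sox18 were at 465 and 694 CPM in endothelial-like cells. The SoxD members Sox5 and Sox6 and the SoxB1 member Sox3 were highest in OPC-like cells, at 155, 330 and 111 CPM. In quiescent NSC-like cells Sox5 was at 76.7 and Sox6 at 64.8 CPM. The SoxC member Sox12 was at 42.8 to 51.4 CPM in activated NSC-like, TAP-like and neuroblast-like cells.

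To ask whether the members changed with age or with loss of the interferon receptors, the UMIs of a class were added up for each mouse and compared with edgeR's quasi-likelihood test, with p adjusted over all genes tested (Benjamini-Hochberg, threshold 0.05). Only cells with a called hashtag entered these sums. Over all classes, they were 21.6% of WT young, 20.5% of KO young, 60.4% of WT old and 53.1% of KO old cells. Whether they differ from the cells without a hashtag was not tested. Quiescent NSC-like cells were those with a vSVZ hashtag, 146 to 322 per mouse. In them 10418 genes were tested, 5 of the 8 members among them. Sox10 did not pass the filter on low counts.

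In quiescent NSC-like cells of WT mice, both SoxC members fell with age. The young mice held 168 and 160 CPM of Sox4 and the old mice 59.4 and 84.1 CPM. The groups did not overlap, and the log2 change was −1.13 ± 0.16 (SE, n = 2 against 2), adjusted p = 1.1e-05 with edgeR's quasi-likelihood test. Sox11 was at 218 CPM in each young mouse and at 154.5 and 124 CPM in the old mice, a change of −0.67 ± 0.13, adjusted p = 0.00042. Sox21 went the other way, from 125 and 133 CPM to 171 and 164 CPM (0.37 ± 0.12, adjusted p = 0.036). These 3 of 5 tested members stand against 15.6% of all genes called in this comparison. Sox9 was at 1544 and 1392 CPM in young and 1635 and 1725 CPM in old mice (0.20, adjusted p = 0.097), and Sox8 at 91.0 and 102 CPM and at 90.5 and 96.2 CPM. The Sox21 call was lost when any of the 4 WT mice was left out. The same call was lost by DESeq2, without the filter on low counts and with only the 2 groups compared. It was also lost with hashtags of a posterior of at least 0.95 and without the eYFP-rich cluster. Cells thinned to 1000 UMIs and a cluster resolution of 0.5 each lost the Sox21 call as well. With cells thinned to 1000 UMIs the Sox4 change was −0.73 (adjusted p = 0.20), and at a cluster resolution of 0.5 the Sox11 change was −0.09 (adjusted p = 0.82).

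In KO mice, both SoxC members fell as well. Sox4 was at 114 and 130 CPM in the KO young and 56.4 and 78.3 CPM in the KO old mice, without overlap (−0.84 ± 0.15, adjusted p = 0.00078). Sox11 was at 153 and 185.5 CPM in the young and at 102 and 114 CPM in the old mice (−0.63 ± 0.12, adjusted p = 0.0016). Here 2 of 5 tested members were called against 4.67% of all genes. Without KO young mouse 2, the Sox11 change was −0.48 with adjusted p = 0.14, and with strict hashtags −0.33 with adjusted p = 0.51. With thinned cells the Sox4 change was −0.72 (adjusted p = 0.28). Sox21 was at 131 and 136.5 CPM and at 134 and 133 CPM.

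**Figure D3:**
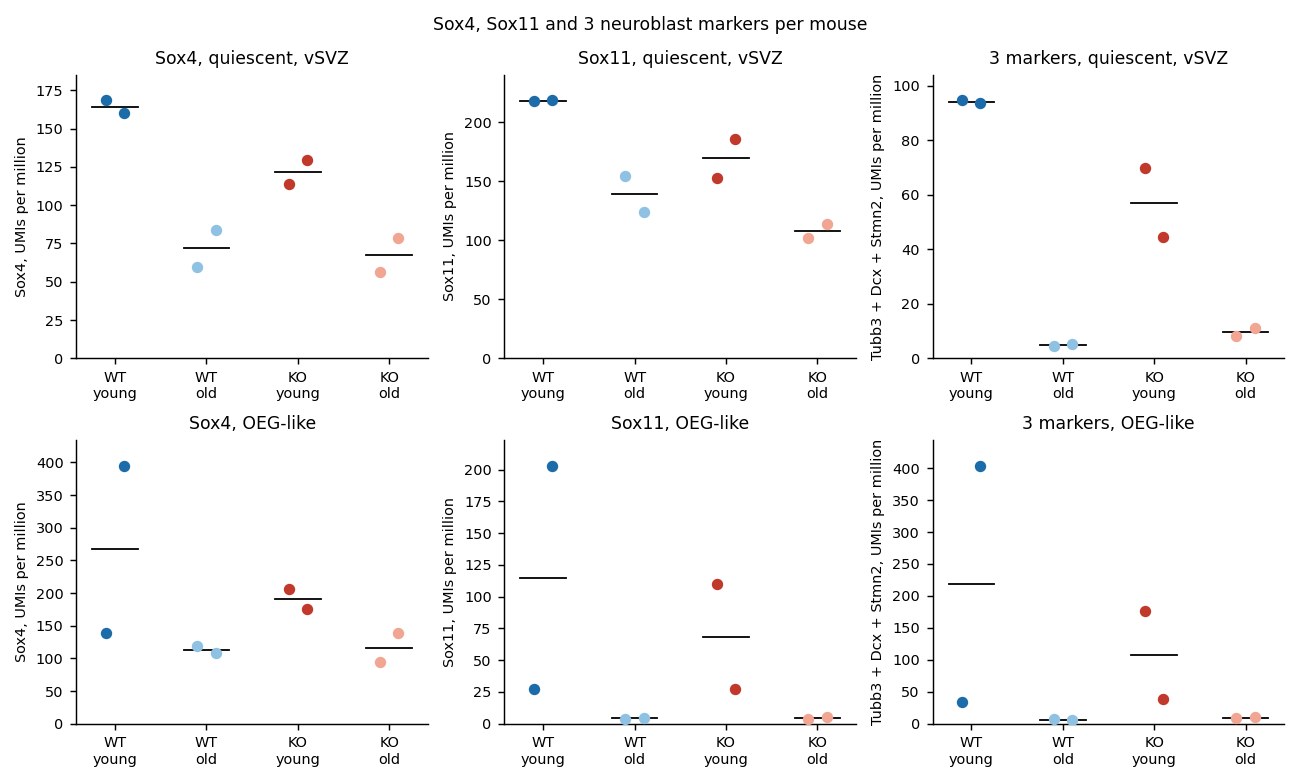
Sox4, Sox11 and the sum of Tubb3, Dcx and Stmn2 (CPM) in quiescent NSC-like cells of the vSVZ and in olfactory ensheathing glia-like cells, with a point per mouse and a black line for the mean in each of the 4 groups. In quiescent cells both SoxC members are lower in the old mice of either genotype, and the neuroblast RNAs are lower in the same mice.

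Neuroblast RNA moved with the SoxC members. In the same sums, Tubb3, Dcx and Stmn2, which are markers of the neuroblast class and also stand in the list of genes downstream of SoxC factors, fell in WT mice, with log2 changes of −4.06, −4.31 and −4.26. Their summed level was 94.1 CPM in WT young and 4.85 CPM in WT old mice, and 57.1 and 9.67 CPM in KO young and KO old mice. Droplets without a cell of the young libraries held 1969 CPM (WT) and 1894 CPM (KO) of Sox4, against 539 and 767 CPM in the old ones, and 1500 and 1774 CPM of Sox11, against 360 and 582 CPM. When the Sox4 and Sox11 UMIs that the Tubb3, Dcx and Stmn2 UMIs would bring at the ratio of the neuroblast-like cells were taken off, young over old went from 2.29-fold to 1.53-fold for Sox4 and from 1.57-fold to 1.26-fold for Sox11 in WT mice. In KO mice it went from 1.81-fold to 1.32-fold and from 1.57-fold to 1.30-fold. These remainders carry no test, and the part of free neuroblast RNA in the calls was not tested further.

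The mix of quiescent clusters moved with age as well. The eYFP-rich cluster made up 47.9% and 51.6% of the vSVZ quiescent NSC-like cells in the WT young mice and 23.1% and 10.9% in the WT old mice, and 37.6% and 39.9% against 15.8% and 16.0% in KO young and KO old mice. In the largest cluster alone, Sox4 was at 109 and 97.8 CPM in the WT young and 17.1 and 34.7 CPM in the WT old mice, a change of −1.87 with adjusted p = 2.4e-08, and −1.46 in KO mice with adjusted p = 5.6e-07. Sox11 in that cluster was at 129 and 117 CPM in WT young and 141 and 98.4 CPM in WT old mice (−0.13, adjusted p = 0.80), and changed by −0.65 in KO mice (adjusted p = 0.0089). In the eYFP-rich cluster alone neither was called: Sox4 was at 239 and 206 CPM in WT young and 140 and 226 CPM in WT old mice (−0.22, adjusted p = 0.73), and Sox11 at 319 and 309 against 240 and 192 CPM (−0.49, adjusted p = 0.24). In KO mice the direction turned in that cluster: Sox4 was at 144 and 181 CPM in young and 140 and 192 CPM in old mice (0.060, adjusted p = 0.97), and Sox11 at 202 and 249 CPM in young and 196 and 267 CPM in old mice (0.072, adjusted p = 0.95). Without the eYFP-rich cluster, the Sox11 change was −0.09 in WT mice (adjusted p = 0.83) and −0.75 in KO mice (adjusted p = 0.0015).

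None of the 5 tested members was called between genotypes in quiescent NSC-like cells, against 2.8% of all genes in young and 0.192% in old mice, nor for the difference between the age changes of the genotypes, against 1.02%. Sox4 was lower by 0.40 (log2) in KO young than in WT young mice, with adjusted p = 0.15, and Sox8 by 0.43 with adjusted p = 0.11. The age change of Sox4 differed between genotypes by 0.29 with adjusted p = 0.61, and that of Sox11 by 0.05 with adjusted p = 0.95. Of the genes downstream of SoxC factors, Stmn2 was lower in KO young than in WT young mice (−1.21, adjusted p = 0.011).

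Factors that work beside SOX proteins in NSCs were tested in the same sums, 9 of 10 passing the filter. In WT mice the Notch target Hes5 (0.54, adjusted p = 0.00015) and the nuclear factor Nfib (0.34, adjusted p = 0.013) rose with age and Nfix fell by 0.49 (adjusted p = 0.0028). In KO mice the NSC factor Nr2e1 (Tlx) fell by 0.38 (adjusted p = 0.041). The list's median log2 change was 0.25 in WT mice against 0.03 over all genes. None of the 5 tested genes among the other SOX factors was called in any of these comparisons. Of the genes downstream of SoxC factors, 4 of 5 were tested, and besides the 3 neuroblast markers that fell, Map2, a dendritic protein, rose in WT mice (0.42, adjusted p = 0.021). In KO mice the same 3 fell. Of 10 partners and targets of SoxE factors in glia, 4 were tested and 2 rose with age in WT mice, among them the myelin gene Mbp (2.20, adjusted p = 0.0091), where the WT old library held 59 oligodendrocyte-like cells and the WT young library 0. The part of free oligodendrocyte RNA was not tested. Of the same 4 genes, 1 was higher in KO young than in WT young mice and 1 had a lower age change in KO than in WT mice.

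Activated NSC-like cells could be compared in KO mice with age and in young mice between genotypes, with 20 to 39 cells per mouse. Of the 5 members tested, none was called in either comparison, against 0.668% and 0.134% of all genes. Sox9 was at 610 and 531 CPM in KO young and 797 and 1171 CPM in KO old mice, a difference of 0.78 ± 0.22 with adjusted p = 0.12. The cluster led by Egfr and Dll1 made up 162 of 329 activated NSC-like cells in the KO young and 100 of 132 in the KO old library. TAP-like cells reached 20 per mouse only in WT young and neuron-like cells only in KO old mice, so neither was tested.

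In the neuroblast-like class a hashtag was called for only 10.8% of cells. With strict hashtags (posterior of at least 0.95) too few were left for a fit. How far wrong assignments of cells to mice enter the spread between mice was not tested. Among the neuroblast-like cells with a hashtag (32 to 135 per mouse), 4 members passed the filter and Sox11 was the only one called. It was at 3690 and 3850 CPM in the WT young and 4574 and 4424 CPM in the WT old mice, 0.22 ± 0.06 higher with age (adjusted p = 0.021), against 3.26% of all genes called. It was at 4580 and 4308 CPM in the KO young mice, 0.24 ± 0.06 above WT young (adjusted p = 0.0096, against 1.67% of all genes), and at 4300 and 4087 CPM in the KO old mice. Only the 2 WT young mice stood apart, below the other 6. The age changes of the genotypes differed by −0.33 ± 0.08 (adjusted p = 0.037, against 0.582% of all genes). No member was called with age in KO mice (0.378% of all genes) or between genotypes in old mice (0.189%).

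**Figure D4:**
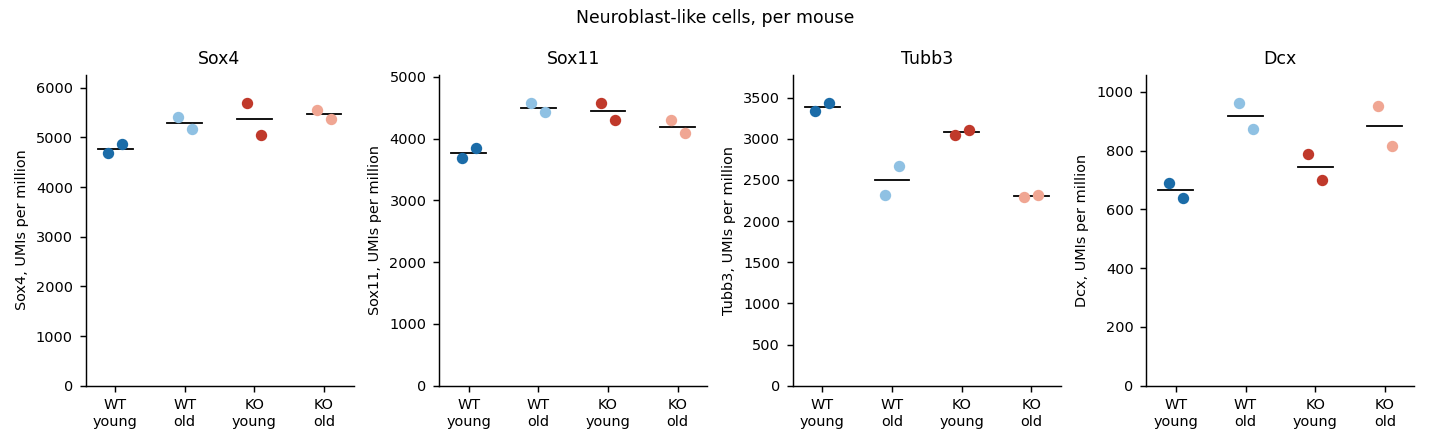
Sox4, Sox11, Tubb3 and Dcx (CPM) in neuroblast-like cells, with a point per mouse and a black line for the mean in each of the 4 groups. Sox11 is at 3690 and 3850 in the WT young mice and between 4087 and 4574 in the other 6 mice.

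These Sox11 calls rested on few mice. The age call in WT mice was lost without WT old mouse 1, WT young mouse 1 or WT young mouse 2, with a change of 0.16 and adjusted p = 0.38 without WT old mouse 1. The call between young genotypes was lost without KO young mouse 1 or either WT young mouse, and by DESeq2 (adjusted p = 0.051). The difference between age changes was lost when any mouse but WT old mouse 2 was left out, and by DESeq2 (adjusted p = 0.12). The clusters of this class were mixed differently: the cluster led by Stmn2 and Tubb3, low in Sox11, held 1126 of 2934 cells in WT young and 55 of 324 in WT old mice, and 550 of 2710 and 77 of 542 in KO mice of the same ages. Within that cluster Sox11 was at 3371 CPM in WT young mice and between 3637 and 3917 CPM in the others, and WT young was also lowest in the clusters led by Foxp2 (4051 against 4414 to 4612 CPM) and St18 (3988 against 4707 to 5019 CPM), but not in the cluster led by Sfrp2 (3359 against 3345 to 3632 CPM).

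Sox4 in neuroblast-like cells was at 4683 and 4866 CPM in WT young and 5406 and 5162 CPM in WT old mice. The KO mice held 5695 and 5042 CPM when young and 5555 and 5377 CPM when old. It was lowest in the WT young mice too, but no difference was called (0.11 with age in WT mice, adjusted p = 0.37, and 0.17 between young genotypes, adjusted p = 0.12). Genes downstream of SoxC factors went both ways with age in WT mice. Of 4 tested, Tubb3 (−0.49, adjusted p = 9.5e-08) and Stmn2 (−0.51, adjusted p = 2.2e-08) fell with age in WT mice, whereas Dcx (0.44, adjusted p = 0.0049) and Map2 (0.57, adjusted p = 0.0073) rose. Tubb3 also fell in KO mice (−0.44, adjusted p = 1.5e-06). The cluster led by Stmn2 and Tubb3 was a smaller share of the WT old than of the WT young cells. The part of this mix in the changes of these genes was not tested. Among the partner factors, 6 of 10 were tested: Nfib (0.58, adjusted p = 3.9e-09) and Nfia (0.38, adjusted p = 0.019) rose with age in WT mice, and Nfib was higher in KO young than in WT young mice by 0.35 (adjusted p = 0.00033). Its age changes differed between genotypes by −0.47 (adjusted p = 0.0035), the same sign as for Sox11. In KO mice Pax6 (−2.25, adjusted p = 0.046) and Nfix (−0.39, adjusted p = 0.027) fell with age. Of the other SOX factors, 3 were tested and Sox5 rose with age in WT mice (1.22, adjusted p = 0.021).

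In olfactory ensheathing glia-like cells (68 to 338 per mouse), the largest class with Sox10, 6 members were tested. Neither glial member was called. Sox10 was at 257 and 309 CPM in WT young and 394 and 375 CPM in WT old mice (0.41, adjusted p = 0.12), and at 313 and 307 CPM and 342 and 296 CPM in young and old KO mice. Sox8 was at 225 and 218.5 CPM in WT young and 218 and 233 CPM in WT old mice, against 176 CPM in each KO young mouse and 163 and 181 CPM in KO old mice. The KO mice lay below the WT mice at both ages, with adjusted p = 0.41 in old mice (−0.31), where 0.387% of all genes were called. There was no call in young mice, where 0.575% were. This gap was not particular to Sox8 in these glia. Sox21 in the same cells also lay lower in KO than in WT mice at both ages, without overlap. So did Sox8 and Sox11 in quiescent NSC-like cells, and none of these differences was called. The share of all genes with such a gap is not given here. Sox9 was at 100.4 and 88.3 CPM in WT young and 136.5 and 154 CPM in WT old mice (0.59, adjusted p = 0.092).

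The members called in these glia were again Sox4 and Sox11. In WT mice Sox4 changed by −1.30 ± 0.28 (adjusted p = 0.024) and Sox11 by −4.79 ± 0.74 (adjusted p = 0.0065), against 2.02% of all genes, and in KO mice Sox11 by −3.91 ± 0.67 (adjusted p = 0.021), against 0.278%. Sox11 was at 26.9 and 203 CPM in young WT mice against 3.94 and 4.66 CPM in old ones, and at 110 and 27.3 CPM in young KO mice against 3.69 and 5.28 CPM in old ones. Sox4 was at 139.5 and 395 CPM in the WT young and 119 and 107.5 CPM in the WT old mice. A single young mouse of each genotype was high. Without WT young mouse 2 the changes were −0.31 for Sox4 (adjusted p = 0.69) and −2.64 for Sox11 (adjusted p = 0.35), and without KO young mouse 1 the Sox11 change in KO mice was −2.52 (adjusted p = 0.48). The KO call of Sox11 was also lost by DESeq2 (adjusted p = 0.40), with the replicate block (0.071) and with thinned cells (0.14). In WT mice, DESeq2 lost the Sox4 call (adjusted p = 0.17), and thinned cells lost those of Sox4 (0.10) and Sox11 (0.59). The Sox4 and Sox11 calls in WT mice were also lost without either WT old mouse. For the difference between the age changes, 0% of 10084 genes were called by edgeR, with 1000 at an unadjusted p under 0.05.

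In the same sums Tubb3, Dcx and Stmn2 fell in WT mice, with log2 changes of −4.53, −6.00 and −5.86, from a summed 219 to 6.31 CPM, and stood at 107 and 9.31 CPM in KO young and KO old mice. Per UMI of these 3 genes, olfactory ensheathing glia-like cells held 0.524 Sox11 UMIs in the WT young library and neuroblast-like cells 0.497. These ratios were 0.667 and 0.754 for WT old mice, 0.711 and 0.664 for KO mice of the young age, and 0.554 and 0.716 for KO mice of the old age. Quiescent NSC-like cells of young mice held 1.44 (WT) and 2.54 (KO) Sox11 UMIs per marker UMI, and those of old mice 10.1 and 9.49. In each library the ratio was higher in quiescent NSC-like cells than in the other 2 classes. The ratios of the glia in WT old and KO old mice rest on only 22 and 31 Sox11 UMIs. Microglia-like cells of WT young and KO young mice held 0.436 and 0.467, and endothelial-like cells of KO young mice 0.557. In the old libraries these 2 classes held at most 1 Sox11 UMI. The part of free RNA in these ratios was not tested. With the neuroblast share taken off, the Sox4 ratio of young over old in these glia went from 2.36-fold to 1.17-fold in WT and from 1.64-fold to 0.996-fold in KO mice. For Sox11, 6.02 CPM were left in WT young and −0.462 CPM in WT old mice. In KO young and KO old mice it was −2.87 and −2.19 CPM, so no ratio is given for Sox11. These remainders carry no test.

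By their tissue hashtags, cells of the quiescent NSC-like class, astroglia included, were compared between vSVZ and RoB within each of 8 mice. The vSVZ gave 146 to 322 such cells per mouse and the RoB 40 to 127. The class rests on markers that NSCs share with astrocytes, and its RoB cells were not shown to be stem cells. They held 11.8 CPM of Thbs4 and 48.9 CPM of Olig2, against 150.5 and 5.93 CPM in the vSVZ. The paper removed astrocytes from outside the vSVZ from its lineage cells. The sort gates differed between the tissues, so tissue and gate cannot be told apart. Of the 5 members tested, 4 were called, against 12.9% of 8019 genes, with the mouse as a block in edgeR's fit.

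**Figure D5:**
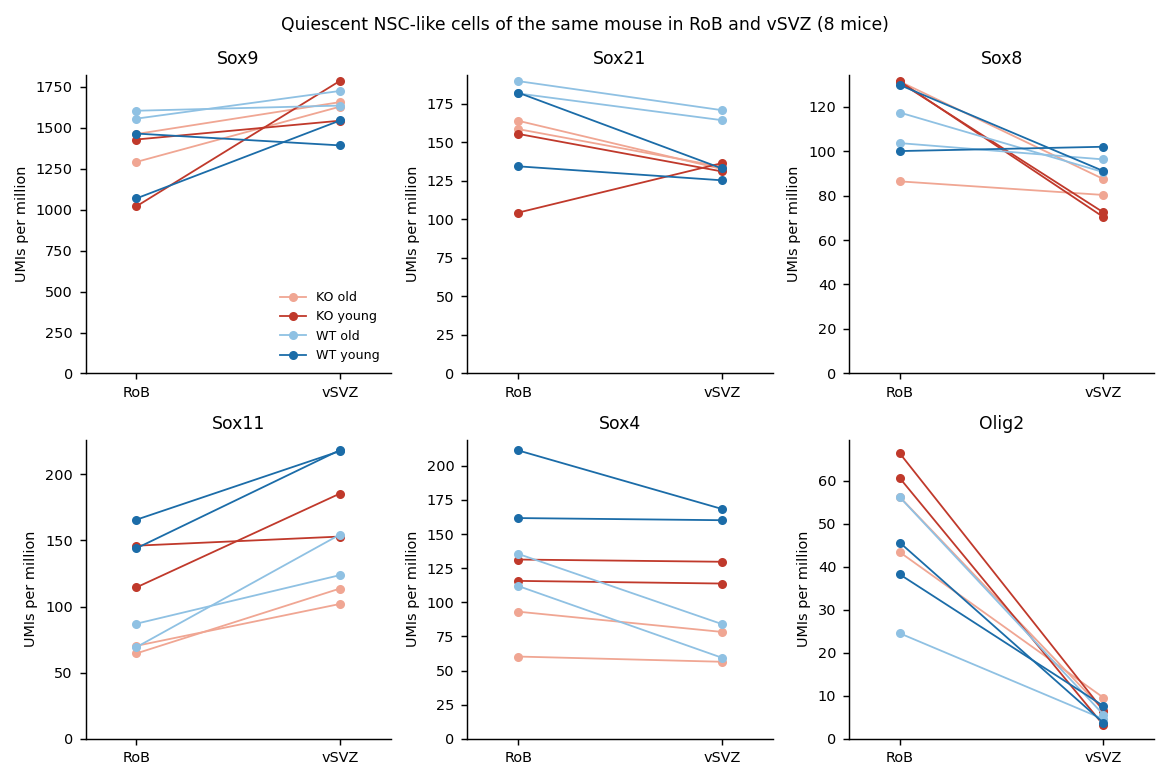
Sox9, Sox21, Sox8, Sox11, Sox4 and Olig2 (CPM) in the quiescent NSC-like class, astroglia included, of the RoB and the vSVZ. Each of the 8 mice has a line, coloured by group. Sox11 is higher in the vSVZ in all 8 mice, and Sox4 higher in the RoB in 8, with nearly level lines in 3 of them.

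Sox11 was higher in the vSVZ in 8 of 8 mice, with 102, 154 and 218 CPM as the lowest, median and highest value, against 64.6, 101 and 166 CPM in the RoB. The ranges overlapped between mice, but not the direction within them, and the log2 difference was 0.58 ± 0.09 (adjusted p = 1.2e-05). With cells thinned to 1000 UMIs it was 0.31 and no longer called (adjusted p = 0.41). Sox4, the other SoxC member, went the opposite way, with means of 128 CPM in the RoB and 106 CPM in the vSVZ and a difference of −0.31 ± 0.10 (adjusted p = 0.024). It was higher in the RoB in 8 of 8 mice, but nearly equal in 3 of them (log2 differences of −0.023 to −0.014). That call was lost without WT old mouse 1, WT old mouse 2 or WT young mouse 1, with thinned cells (adjusted p = 0.14), without the mouse as a block (0.57), without the filter (0.058) and by DESeq2 (0.16), and the direction turned to 0.14 (adjusted p = 0.49) with predicted doublets kept. Of the neuroblast RNAs, Tubb3 was at 17.0 CPM in the vSVZ and 22.6 CPM in the RoB, Dcx at 7.26 and 3.71 CPM, and Stmn2 at 17.1 and 15.9 CPM.

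The SoxE members also parted. Sox9 was higher in the vSVZ in 7 of 8 mice, with 1614 ± 122 against 1362 ± 217 CPM (SD, n = 8), a difference of 0.24 ± 0.07 (adjusted p = 0.0075). Sox8 was higher in the RoB in 7 of 8 mice, with 116 ± 17.6 against 86.2 ± 11.1 CPM (−0.42 ± 0.10, adjusted p = 0.0021). In both cases WT young mouse 2 was the exception, with nearly equal values. Sox21 was at 141 ± 16.8 CPM in the vSVZ and 159 ± 28.4 CPM in the RoB, not called (adjusted p = 0.145).

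Other factors parted between the tissues as well. Of 9 partner factors tested, Nr2e1 (0.59, adjusted p = 1e-06), Pou3f2 (0.38, adjusted p = 3e-05), a POU factor that pairs with SoxB1 proteins, and Hes5 (0.34, adjusted p = 0.00015) were higher in the vSVZ, together with Nfia (0.18, adjusted p = 0.024), which lies outside the naming rule and was added after its values were seen, and Pax6 was higher in the RoB (−1.01, adjusted p = 1.7e-05). All 3 tested SoxE partners and targets were higher in the RoB, among them the oligodendrocyte lineage factors Olig2 (48.9 against 5.93 CPM, −3.00) and Olig1 (107 against 20.7 CPM, −2.34). Of the 4 other SOX factors tested, Sox6 was higher in the RoB (−0.38, adjusted p = 0.022). Thbs4, which leads the eYFP-rich cluster, was at 150.5 CPM in the vSVZ and 11.8 CPM in the RoB. Without the eYFP-rich cluster, the Sox11 difference was 0.35 (adjusted p = 0.020).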

How the data were processed

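Single cells were captured with the 10x 3′ v3.1 chemistry. The authors removed index-hopped reads, counted UMIs with kallisto and bustools on GRCm38, demultiplexed hashtags and analysed cells with Scanpy 1.6.0. Which annotation release they used is not given in the sources used here. Raw UMI counts were deposited without a cell filter, for 844265 barcodes and 32287 genes, of which 32158 were named from GENCODE IDs. Libraries held 27096070 to 78028524 UMIs. A further hashtag sample that the labels put in no group was not used here, and the label of the WT young hashtag library names other samples as well, which were not analysed here.

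Cells with 100 to 6000 genes, 1000 to 20000 UMIs and at most 10% mitochondrial UMIs were kept. Hashtags were assigned with a mixture of 5 components, and 335 of 18390 cells (1.82%) that Scrublet predicted as doublets within a library were removed. A hashtag was called in 32.2% of cells, from 10.4% of TAP-like to 99.7% of microglia-like cells, so tests use part of a class. In WT and KO mice the rate was 21.6% and 20.5% in the young libraries and 60.4% and 53.1% in the old ones. Leiden clusters (2000 variable genes without SOX and interferon-response genes, 50 components, 15 neighbours, resolution 1) were named from marker lists. Sums per mouse and class of at least 20 cells were tested with edgeR 4.0.16 (quasi-likelihood, TMM, filterByExpr, groups as means), a step tested on simulated data, and with DESeq2 1.42.0 as an alternative, in R 4.3.3. Scanpy 1.11.5, scipy 1.17.1 and numpy 2.4.6 were used in Python 3.11.15. The text names the 8 members, at most 4 called genes per list and comparison in classes with a called member, and the 3 genes most like each member, except for some genes that are not reported here. Sox1ot and Sox2ot are named as hosts. Members and lists were chosen with earlier results of these data known. The alternatives with only the largest or only the eYFP-rich quiescent cluster, and with the neuroblast share taken off, were chosen after seeing the data. The 2 mice of a group share a reaction, so p-values measure the spread between these mice only.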

Additional observations from a re-analysis of the deposited data

Results flagged for a closer look

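In the comparison of tissues, 1 mouse stood apart for Sox21. KO young mouse 2 had 104 CPM in the RoB and 136.5 CPM in the vSVZ, a log2 difference of 0.37, whereas Sox21 was higher in the RoB in the other 7 mice. Its RoB value rests on only 31 Sox21 UMIs in 40 cells. With a limit of 95%, chance alone marks such a mouse in about 5 of 100 members tested in this way.

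The age change of Sox11 in neuroblast-like cells differed between the genotypes by −0.33 (log2), with the WT young mice below the other 6. The adjusted p was 0.037, and leaving out any mouse but WT old mouse 2 ended the call.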

How the results depend on the processing

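Over the changes of single members and their alternatives, 1188 values stayed on their side of the threshold. A further 66 lost a call, 13 gained one and 3 reversed. For members not called, a change of direction that stayed without a call was counted among the 1188. Another 6 values were changes with the neuroblast share taken off, which carry no test. Over the classes, 6 member calls were made with age in WT mice, 3 with age in KO mice, 1 between genotypes in young mice, 0 in old mice, 1 for the difference of the age changes and 4 between tissues. In this order, thinned cells gave 2, 1, 0, 0, 0 and 2 calls, and DESeq2 gave 0 between young genotypes and 0 for the difference. No filter gave 5 with age in KO mice, 0 between young genotypes and 0 for the difference. Leaving out a mouse gave 2 to 6, 2 to 3, 0 to 2, 0, 0 to 1 and 3 to 5. The eYFP-rich cluster alone gave 3 with age in WT and 1 in KO mice, a fit of only the 2 groups gave 3 between young genotypes, and doublets kept or a resolution of 0.5 gave 0 for the difference. Mouse numbers did not pair across groups (correlations of deviations −0.0283 to 0.0604). With the replicate block there were 2 calls between young genotypes, and without the block between tissues 2. Reversed were Sox4 and Sox11 with age in KO mice in the eYFP-rich cluster alone (0.060 and 0.072) and Sox4 between tissues with doublets kept (0.14). The cause was not tested.

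Quiescent over neuroblast-like cells, the log2 ratio of Sox9 was 3.96 and went to 4.14 thinned and 4.19 as a mean per cell, Sox21 from 2.18 to 2.44 as a mean per cell and 2.36 with SOX genes in the clustering, and with doublets kept Sox4 from −5.49 to −4.74 and Sox11 from −4.91 to −4.35. Oligodendrocyte over quiescent NSC-like cells, Sox8 went from 0.51 to 0.62 thinned, and Sox10 from 5.99 to 5.97 thinned, 6.04 as a mean per cell, 5.97 with doublets kept, 6.01 at resolution 0.5 and 7.50 with a pseudocount of 1.

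Over all genes, 1628 were called with age in WT quiescent NSC-like cells, against 699 by DESeq2, 970 with strict hashtags, 414 without the eYFP-rich cluster, 293 thinned, 400 at resolution 0.5 and 586 to 1380 without a mouse. In neuroblast-like cells it was 224, against 85 by DESeq2, 41 thinned and 97 to 163 without a mouse. In olfactory ensheathing glia-like cells it was 204, against 430 without a filter, 105 with the block, 8 thinned and 0 to 219 without a mouse. Between tissues it was 1036, against 202 thinned. Strict hashtags left too few neuroblast-like and activated NSC-like cells, and doublets kept or resolution 0.5 too few activated NSC-like cells, to be fitted.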

Other observations

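Sox1ot, the transcript around Sox1, was chosen after its values were seen. In quiescent NSC-like cells of the vSVZ its log2 change with age in WT mice was −0.95 (adjusted p = 3.9e-05 with edgeR's quasi-likelihood test), and its difference of KO from WT at the young age was −0.49 (adjusted p = 0.048). Its level was 65.9 CPM in quiescent NSC-like, 182 CPM in activated NSC-like, 92.2 CPM in TAP-like and 47.9 CPM in neuroblast-like cells, and 2.9 CPM in microglia-like cells. These are values of Sox1ot and not of Sox1.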
